A study of Mus musculus with 8 samples.

Results

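Granzyme M, encoded by Gzmm, is the gene described here, in spleen cells of mice that carry a transgene for the architectural chromatin protein HMGA1a. It is 1 of the 11189 genes that could be compared, and 1 of the array's 45101 probe sets was annotated to it, with no other symbol on that probe set. Gzmm was chosen by its measured signals on these same arrays, so its levels and differences are given below as a description, with no test. RNA of splenocytes from male C57/BL6 mice was hybridised to 8 Affymetrix Mouse 430 2.0 arrays. The groups were HMGA1a transgenic mice at 2 months (TG), wild type littermates at 2 months (WT), TG mice at 12 months and WT mice at 12 months, with 2 arrays labelled as biologic replicates in each. By the series' design text, lymphoid tumours appear in all TG mice, the younger age lies before they form and the older age after they are established. The promoter that drives the transgene, the number of founder lines and whether animals were pooled are not given in the sources used here, and no mouse is labelled as treated. The level of the transgene itself was not analysed here.

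Granzymes are serine proteases that cytotoxic lymphocytes store in secretory granules and deliver into target cells through pores made by perforin. Granzyme M differs from its relatives in cleaving after methionine or leucine, and it is best known from natural killer (NK) cells and innate-like T cells, while granzymes A and B mark activated cytotoxic T cells as well. HMGA1a binds the minor groove of AT-rich DNA, so the promoter sequences of Gzmm are shown with their A/T runs.

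RefSeq lists 2 start sites for Gzmm, both on the plus strand of chromosome 10, and the promoters below are taken from RefSeq on GRCm38.p6, from 250 bases before to 50 bases after each start. Capitals mark runs of at least 6 bases that are only A or T. The first lies at chr10:79688770-79689069 and the second at chr10:79693576-79693875.
Gzmm promoter, first start site: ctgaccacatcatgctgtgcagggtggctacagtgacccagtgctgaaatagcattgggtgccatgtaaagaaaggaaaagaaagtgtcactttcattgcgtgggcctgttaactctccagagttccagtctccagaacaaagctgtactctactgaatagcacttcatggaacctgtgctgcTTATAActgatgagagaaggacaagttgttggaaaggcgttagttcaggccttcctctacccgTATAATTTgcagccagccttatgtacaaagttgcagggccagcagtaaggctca
Gzmm promoter, second start site: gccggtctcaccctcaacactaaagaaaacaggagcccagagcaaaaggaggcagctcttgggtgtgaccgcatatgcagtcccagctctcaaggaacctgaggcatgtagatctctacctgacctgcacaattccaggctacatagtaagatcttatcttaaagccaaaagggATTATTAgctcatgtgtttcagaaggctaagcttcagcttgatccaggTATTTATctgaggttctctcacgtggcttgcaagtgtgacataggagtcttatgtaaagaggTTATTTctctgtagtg
The first promoter is 52.7% A or T with 2 such runs, the longest of 8 bases, and the second is 54% A or T with 3 runs, the longest of 7 bases. Over 32851 RefSeq promoters of the same length the median was 47.3% A or T, 47.8% held at least 2 runs and 32.4% held at least 3. The T-box core GGTGTG, searched on both strands, occurs once in the second promoter and is not in the first, and 19% of all promoters hold it. The RUNX core TGTGGT, searched in the same way, occurs once in the first promoter and is not in the second, and 16.8% of all promoters hold it. T-box factors (T-bet and Eomes) and RUNX3 drive cytotoxic genes in lymphocytes. A match is a stretch of letters and no measured binding site, and an array signal does not show which start site was used.

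Signals are on a linear scale that the processing set to the same trimmed mean on every array. Medians over an array's probe sets ran from 44.9 to 49.5, and signals under 16 made up 25.03% to 28.7% of them. Differences are between values of log2(signal + 16), so they understate the change of a dim gene, and they are given ± SE from limma fitted to all genes. Precision is limited by having 2 arrays in a group. Defining markers of B cells and T cells had clear signals on all arrays, as spleen cells should: Cd79a, a chain of the B cell receptor complex, was 1796 or higher, and Cd247, the zeta chain of the T cell receptor complex, was 196 or higher. Array WT replicate 1 at 2 months stood apart, because its summed signal of 6 exocrine pancreas markers was 12600, against 565 to 848 on the other 7 arrays. The 3-prime over 5-prime signal ratio of the Gapdh controls, a measure of RNA integrity, ran from 0.8427 to 1.479 on TG arrays and from 1.006 to 1.735 on WT arrays. In each group this ratio was lower in replicate 1 than in replicate 2, and it was lowest in TG replicate 1 at 12 months. At 12 months it separated the genotypes, with 0.8427 and 1.207 in TG mice, against 1.252 and 1.735 in WT mice. The actin ratio did so too, with 1.2 and 1.096 in TG mice, against 1.484 and 1.306 in WT mice. Both ratios overlapped at 2 months. The part of RNA integrity in the 12-month differences was not tested.

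At 2 months, Gzmm had a signal of 260 and 312 in TG mice, against 45.7 and 46 in WT mice. At 12 months it had 1089 and 430 in TG mice, against 83.9 and 81.1 in WT mice. Each of the 4 TG arrays thus lay above each of the 4 WT arrays, and the lowest TG signal was 3.1 times the highest WT signal. TG above WT on all arrays was also seen for 1.28% of the 11189 genes, a share that the choice of Gzmm leaves as background only. The WT mice at 2 months had a Gzmm level close to the median of all probe sets of an array, just above the mean level at which genes were kept (45.3).

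**Figure D1:**
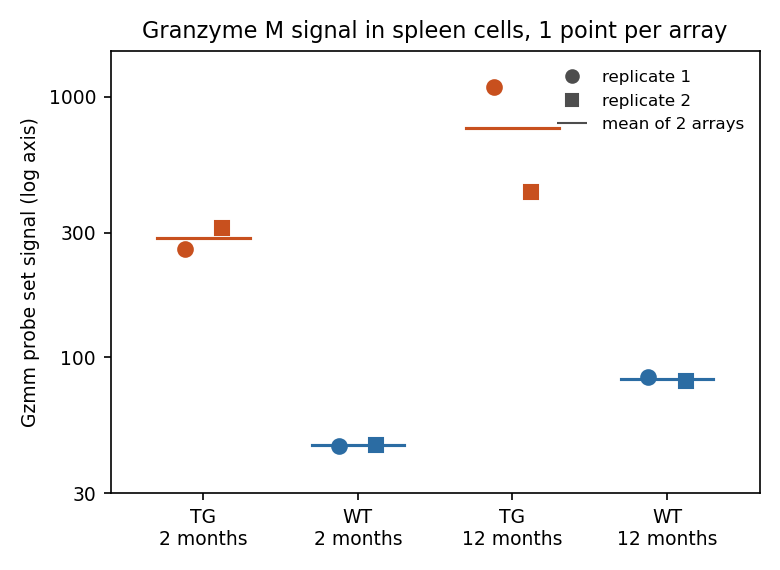
Signal of the Gzmm probe set on a log axis in TG and WT mice at 2 and 12 months. Points are single arrays, with circles for replicate 1 and squares for replicate 2, and lines are the mean of 2 arrays. The lowest TG array (260) lies above the highest WT array (83.9).

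The group means were 286 ± 36.5 in TG mice and 45.9 ± 0.184 in WT mice at 2 months (SD, n = 2 each). At 12 months they were 759 ± 466 in TG mice and 82.5 ± 1.99 in WT mice (SD, n = 2 each). The TG minus WT difference was 2.28 ± 0.37 on the log2 scale at 2 months, with 2.16 and 2.40 within replicates 1 and 2. It was 2.83 ± 0.37 at 12 months, with 3.47 and 2.20 within replicates 1 and 2. As ratios of mean signals these were 6.23 at 2 months and 9.21 at 12 months.

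No other gene of the 11189 had a larger positive TG minus WT difference at 2 months, and 1 gene, known only by a clone name, had a larger one at 12 months. The 2-month value did not rest on the array with pancreas signal: without it the difference was 2.28. The 12-month value depended on TG replicate 1, without which it was 2.18, and on TG replicate 2, without which it was 3.49. The difference between the TG effects at 12 and 2 months was 0.55 ± 0.53, with 1.31 and -0.20 within replicates 1 and 2, so the replicates did not share a direction.

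In order of level, TG mice at 12 months came first, then TG mice at 2 months, WT mice at 12 months and WT mice at 2 months. The first and the second of these did not overlap, and their log2 means differed by 1.22 ± 0.37. The 2 TG arrays at 12 months were themselves 1.31 apart, a 2.53-fold difference in signal. Within replicates the 12 over 2 month ratio in TG mice was 4.19 and 1.38. WT mice were more alike. Their signals were 83.9 and 81.1 at 12 months, against 45.7 and 46 at 2 months, a log2 difference of 0.67 ± 0.37 with 0.69 and 0.65 within replicates. The rank order of the groups therefore held in both replicates, and the distance between the ages in TG mice did not.

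Markers of T cells and NK cells, the cells that carry granzyme M, were set beside it on the same arrays. In RNA of whole spleen cells, fewer cells of a type and less RNA per cell cannot be told apart. None of the list genes passed an adjusted p of 0.05 in TG against WT, where 0% of the 11189 genes passed at 2 months and 0% at 12 months (limma, Benjamini-Hochberg). At an unadjusted p under 0.05 there were 44 genes at 2 months and 865 at 12 months. When the replicate number was added as a block, 5 genes or 0.0447% passed at 12 months, namely Gzma, Cr2, Fcer2a, Ighv14-2 and Lgals1, and none passed at 2 months. The effects at both ages are described in turn.

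Of 21 T cell markers listed, 18 had a probe set of their own and all 18 passed the filter. Their median TG minus WT difference was 0.19 on the log2 scale at 2 months, with 13 higher and 5 lower, against 0.01 for all genes. At 12 months it was 0.43, with 14 higher and 4 lower, against -0.03 for all genes. The 2 replicates parted at 12 months, with list medians of 0.88 in replicate 1 and -0.13 in replicate 2. Without TG replicate 1 the 12-month list median was 0.01. The summed signal of the T cell markers was 10124 and 8965 in TG mice, against 8388 and 8171 in WT mice, at 2 months. At 12 months it was 13544 and 7131 in TG mice, against 6105 and 7221 in WT mice.

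TG lay above WT without overlap for 8 of these 18 genes at 2 months (44.4%), against 10.1% of all genes, and for 5 of 18 at 12 months (27.8%), against 14.3% of all genes. At both ages it did so for Cd8b1 and Zap70, 11.1% of the list, against 2.45% of all genes. Cd8b1, the beta chain of the CD8 co-receptor of cytotoxic T cells, had 691 and 606 in TG mice, against 439 and 463 in WT mice, at 2 months. In the 12-month mice it had 1180 and 475 in TG mice, against 263 and 330 in WT mice, a difference of 1.30 ± 0.37 (adjusted p = 0.586, limma). Its TG arrays lay above all its WT arrays. By the brightest probe set of each gene no other T cell marker did so (5.56% of the list, against 1.28% of all genes). A dimmer probe set of Cd8a did so too, with 102, 115, 125 and 94.7 in TG mice, against 71.1, 80.2, 69.4 and 78.9 in WT mice. The other Cd8a probe sets overlapped between genotypes over the 8 arrays. Another dimmer one of these still had TG above WT without overlap within each age. It had 385 and 351 in TG mice, against 265 and 265 in WT mice, at 2 months. At 12 months it had 516 and 228 in TG mice, against 195 and 208 in WT mice. Zap70, the kinase that relays the T cell receptor signal, differed by 0.65 ± 0.21 at 12 months (adjusted p over 0.05, limma).

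Subunits of the T cell receptor complex were highest in TG replicate 1 at 12 months and overlapped between genotypes there. Cd3e, an invariant chain of the T cell receptor complex, had 803 and 287 in TG mice, against 390 and 430 in WT mice, at 12 months. TG replicate 1 was the highest and TG replicate 2 the lowest of these. Cd3d, another such chain, had 1943 and 887 in TG mice, against 619 and 1061 in WT mice, at 12 months. Cd4, the co-receptor of helper T cells, had 271 and 258 in TG mice, against 336 and 345 in WT mice, at 12 months, so it lay below WT on both arrays.

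Of 22 NK cell markers listed, 17 had a probe set of their own and 14 passed the filter. Their median TG minus WT difference was 0.18 at 2 months and 0.29 at 12 months, with 10 higher and 4 lower at each age. As for the T cell markers, the replicates parted at 12 months, with list medians of 0.72 in replicate 1 and -0.02 in replicate 2. Without TG replicate 1 the 12-month list median was 0.05. Without the array with pancreas signal the 2-month list medians were 0.12 for NK cell and 0.16 for T cell markers. The summed signal was 5353 and 4922 in TG mice, against 4116 and 4541 in WT mice, at 2 months. At 12 months it was 9844 and 5463 in TG mice, against 3484 and 4300 in WT mice.

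NK cell markers differed in direction. TG arrays lay above all WT arrays for 3 of the 14 (Eomes, Il2rb and Ccl5) and below all WT arrays for Klra8, while 1.28% and 1.5% of all genes did so. Il2rb, the beta chain of the IL-2 and IL-15 receptors on which NK cells depend, had 558 and 485 in TG mice, against 336 and 295 in WT mice, at 2 months. Its signals at 12 months were 661 and 420 in TG mice, against 412 and 334 in WT mice. Ccl5, a chemokine stored by cytotoxic lymphocytes, had 5303 and 3455 in TG mice, against 1215 and 2176 in WT mice, at 12 months, a difference of 1.39 ± 0.34 (adjusted p = 0.586, limma).

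A pair of activating NK cell receptors were lower in TG mice. Ncr1, the activating receptor NKp46 and the most specific NK cell marker of the list, had 53.3 and 65.6 in TG mice, against 79.2 and 89.4 in WT mice, at 2 months. At the older age it had 24.4 and 28.9 in TG mice, against 50.3 and 53.4 in WT mice, a difference of -0.67 ± 0.22 (adjusted p = 0.59, limma). Klra8, the activating receptor Ly49H, had 1.74 and 29.2 in TG mice, against 172 and 139 in WT mice, at 12 months, a difference of -2.59 ± 0.47 (adjusted p = 0.492, limma). For both genes TG lay below WT without overlap at both ages, which is 14.3% of the list against 2.9% of all genes. Probe sets of Ly49 genes can bind transcripts of related family members, so the Klra values can mix several of them. Klra7, another receptor of that family, had 637 and 120 in TG mice, against 70.1 and 43.4 in WT mice, at 12 months.

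**Figure D2:**
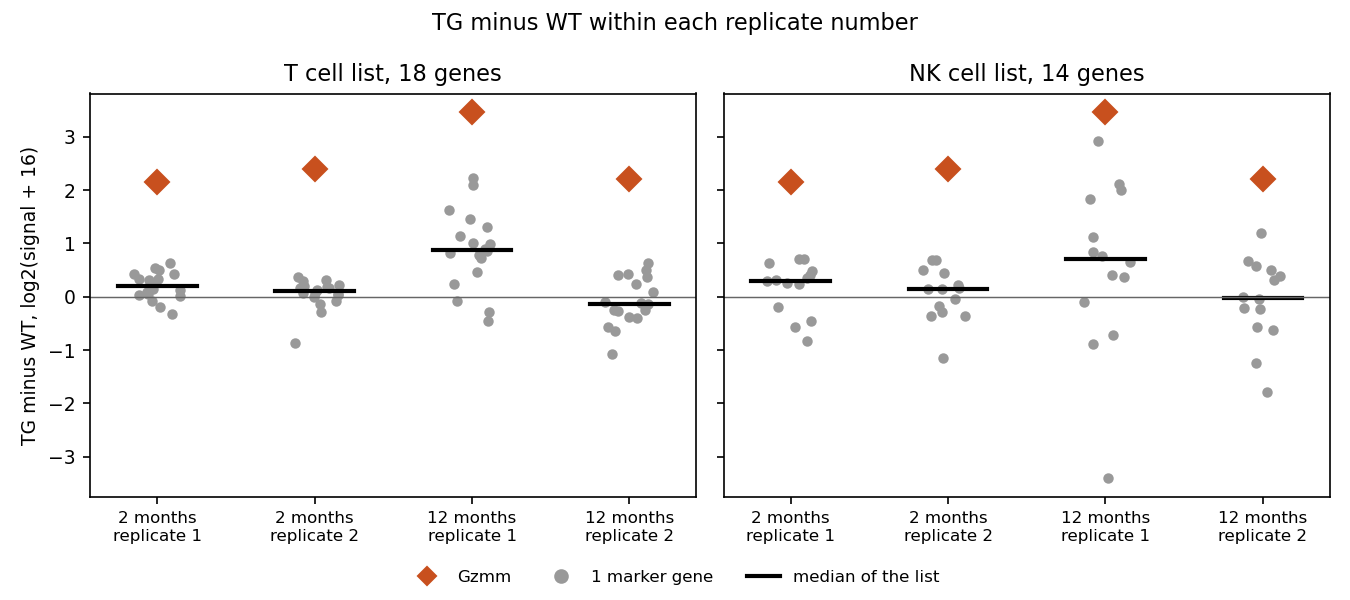
TG minus WT in log2(signal + 16), taken between arrays of the same replicate number, for Gzmm (diamonds), for each marker gene (grey points) and as the list's median (bars), with 18 T cell markers on the left and 14 NK cell markers on the right. Gzmm lies above every marker in all 4 pairs, from 2.16 to 3.47, while the list medians lie between -0.13 and 0.88. Gzmm was chosen by these same signals, so its place above the markers is a description.

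Gzmm differed between TG and WT by more than the markers of either cell type. Its choice by these same signals largely fixes this, so it is a description and no separate result. Set against the mean of the T cell markers on the same arrays, the Gzmm difference remained 2.15 at 2 months (1.96 and 2.35 within replicates) and 2.44 at 12 months (2.59 and 2.28 within replicates). Against the mean of the NK cell markers it remained 2.18 at 2 months (1.99 and 2.36) and 2.59 at 12 months (2.90 and 2.28). Over these markers the replicates of the 12-month effect came closer together, from 3.47 and 2.20 for Gzmm alone to 2.59 and 2.28 relative to T cell markers. At 2 months they moved apart, from 2.16 and 2.40 for Gzmm alone to 1.96 and 2.35 relative to T cell markers. The marker means themselves differed by 0.40 for T cells and 0.25 for NK cells at 12 months. For age in WT mice, Gzmm was higher at 12 months by 0.67 while the T cell marker mean was lower by a difference of -0.30 and the NK cell marker mean by -0.16.

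The other granzymes did not follow Gzmm as a family. Of 10 genes listed (Gzma to Gzmg, Gzmk, Gzmn and Prf1), 4 passed the filter: Gzma, Gzmb, Gzmk and Prf1. Gzmc, Gzmd, Gzme, Gzmf, Gzmg and Gzmn had signals from 0.184 to 14.9 over all their probe sets and the 8 arrays, and none passed the filter. The 4 measured genes had a median TG minus WT difference of -0.05 at 2 months and 0.52 at 12 months.

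Gzma, the trypsin-like granzyme A of NK cells and cytotoxic T cells, ran opposite to Gzmm. It had 720 and 616 in TG mice, against 936 and 1002 in WT mice, at 2 months. Among 12-month mice it had 42.5 and 89.6 in TG mice, against 338 and 337 in WT mice, so TG lay below WT at both ages. The difference was -0.53 ± 0.27 at 2 months and -2.17 ± 0.27 at 12 months (adjusted p = 1 and 0.232, limma). With the replicate number as a block, the 12-month adjusted p was 0.0381, and this call was lost when either WT array of 12 or of 2 months was left out (0.143 to 0.237) and held without any 1 TG array (0.00124 to 0.0437).

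With age Gzma fell in TG mice, to 42.5 and 89.6 at 12 months, against 720 and 616 at 2 months, a log2 difference of -3.12 ± 0.27 (adjusted p = 0.0319, limma). It was the only gene to pass in that comparison, 0.00894% of 11189, and with the replicate block 21 genes or 0.188% passed. Leaving out any array other than those of TG mice at 12 months ended the call, with adjusted p between 0.12 and 0.444, and so did a pseudocount of 1 (0.0533). In WT mice the age difference was -1.48 ± 0.27 (adjusted p = 1, limma), and 0% of genes passed. The interaction, -1.64 ± 0.38, did not pass (adjusted p = 1, limma).

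Gzmk, a tryptase of memory CD8 T cells, was the granzyme nearest to Gzmm in pattern over the 8 arrays (Pearson's r = 0.84, as a description). It had 83.7 and 82.2 in TG mice, against 38.8 and 44.4 in WT mice, at 2 months. The 12-month signals were 417 and 99.3 in TG mice, against 88.4 and 90.1 in WT mice, so its groups did not overlap at either age. TG replicate 1 at 12 months was far above the other 7 arrays, and the differences were 0.78 ± 0.51 at 2 months and 1.09 ± 0.51 at 12 months (adjusted p over 0.05, limma). Gzmb, the granzyme that cleaves after aspartate and triggers caspases, overlapped between genotypes at both ages, with 114 and 53 in TG mice, against 52.5 and 61 in WT mice, at 12 months. Prf1, perforin, had 255 and 114 in TG mice, against 107 and 100 in WT mice, at 12 months, and 101 and 145 in TG mice, against 120 and 123 in WT mice, at 2 months. A dimmer Prf1 probe set overlapped between genotypes at both ages, with 50.7 and 49.1 in TG mice, against 36.3 and 59.1 in WT mice, at 12 months.

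**Figure D3:**
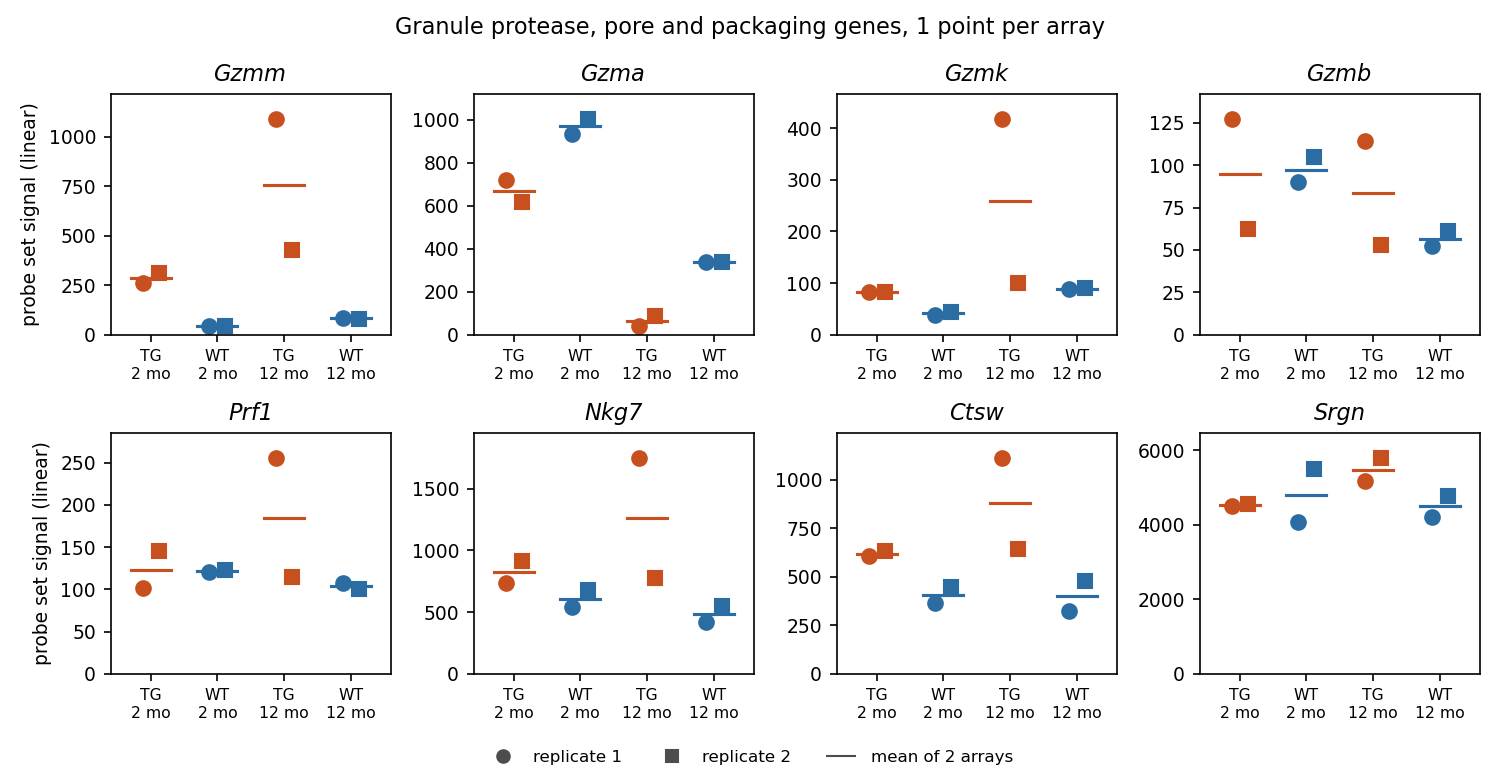
Signals on a linear axis from 0 for Gzmm, 3 other granzymes, perforin (Prf1) and 3 granule packaging genes (Nkg7, Ctsw, Srgn) in TG and WT mice at 2 and 12 months, with 1 point per array and lines at the mean of 2 arrays. Gzma is lower in TG mice than in WT mice at both ages, with 42.5 and 89.6 at 12 months in TG mice. TG replicate 1 at 12 months is the highest point for Gzmm, Gzmk, Prf1, Nkg7 and Ctsw.

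Genes that package and release granule proteases were split. All 10 listed passed the filter, with a median TG minus WT difference of 0.00 at 2 months and 0.22 at 12 months, and none passed the test. Nkg7, a granule membrane protein needed for degranulation, had 734 and 912 in TG mice, against 540 and 677 in WT mice, at 2 months. In the 12-month mice it had 1746 and 779 in TG mice, against 422 and 547 in WT mice. Ctsw, cathepsin W of cytotoxic lymphocytes, had 605 and 634 in TG mice, against 366 and 446 in WT mice, at 2 months. Its signals at 12 months were 1111 and 646 in TG mice, against 324 and 477 in WT mice, a difference of 1.08 ± 0.29 (adjusted p = 0.586, limma). Both genes lay higher on every TG array than on any WT array, 20% of the list against 1.28% of all genes. Ctsc, the protease that activates granzymes, Srgn, the proteoglycan that holds them in granules, and the docking and fusion genes Rab27a, Unc13d and Stx11 differed by -0.14 to 0.09 at 2 months and by -0.32 to 0.51 at 12 months.

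Of 5 serpins that inhibit granule proteases, Serpinb9b, a mouse serpin described as an inhibitor of granzyme M, had 69.8 and 78 in TG mice, against 59 and 46.7 in WT mice, at 2 months. At the older age it had 130 and 77.3 in TG mice, against 63.4 and 50.4 in WT mice, higher on every TG array than on any WT array. Serpinb9, the inhibitor of granzyme B, overlapped between genotypes at both ages, with 486 and 306 in TG mice, against 465 and 377 in WT mice, at 12 months. Serpinb1a, an inhibitor of neutrophil proteases, had 536 and 504 in TG mice, against 915 and 820 in WT mice, at 12 months (adjusted p = 0.586, limma).

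Among transcription factors of cytotoxic lymphocytes, 5 of 7 listed passed the filter, and Tbx21 and Eomes were higher on every TG array than on any WT array, 40% of the measured list against 1.28% of all genes. Eomes was also counted among the NK cell markers above, so these shares are not separate. Tbx21, which encodes T-bet, had 188 and 211 in TG mice, against 127 and 175 in WT mice, at 2 months, and 372 and 201 in TG mice, against 157 and 188 in WT mice, at 12 months, so that its lowest TG and highest WT arrays were nearly level. Eomes, its relative, had 257 and 244 in TG mice, against 190 and 168 in WT mice, at 2 months, and 594 and 284 in TG mice, against 156 and 214 in WT mice, at 12 months. Their 12-month differences were 0.62 ± 0.30 and 1.11 ± 0.32, smaller than that of Gzmm, and neither passed the test (limma). Runx3 and Prdm1, which encode RUNX3 and BLIMP-1, overlapped between genotypes at one age or both. Fasl, the death ligand, had 125 and 69 in TG mice, against 75.4 and 75.9 in WT mice, at 12 months.

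Markers of innate-like T cells were not higher as a list. Of 9 listed, 6 passed the filter, with a median TG minus WT difference of 0.00 at 2 months and -0.27 at 12 months. Zbtb16, which encodes PLZF, the factor of innate-like lymphocytes, had 78.7 and 126 in TG mice, against 78.3 and 92.1 in WT mice, at 2 months, and 36 and 26.4 in TG mice, against 81.9 and 69.5 in WT mice, at 12 months. Cd163l1, a scavenger receptor gene used as a marker of gamma-delta T cells, had 86.8 and 114 in TG mice, against 34.6 and 47.5 in WT mice, at 2 months, and 53.9 and 126 in TG mice, against 42.2 and 56.7 in WT mice, at 12 months, where the groups overlapped. Zbtb16 overlapped at 2 months.

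Markers of other cell types also differed between genotypes at 12 months, and their part in the Gzmm values was not tested. All 9 B cell markers had a lower mean in TG mice, as had 6130 of the 11189 genes, with a median difference of -0.40 (-0.74 in replicate 1 and -0.30 in replicate 2), and none passed the test without the replicate block. In replicate 2 Cd79a, Cd79b and Cd37 were higher in the TG array. Their summed signal was 12923 and 22803 in TG mice, against 18670 and 25548 in WT mice. All 9 macrophage markers had a lower mean in TG mice, with a median difference of -0.53 (-0.82 in replicate 1 and -0.30 in replicate 2), and none passed the test. In replicate 2 C1qa and Cd5l were higher in the TG array. The 8 neutrophil markers had a median difference of 0.91, made of -0.08 in replicate 1 and 1.85 in replicate 2. The defining markers of all of these lists were above 0 on every array.

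The genes whose log2 signals followed Gzmm most closely over the 8 arrays were found by Pearson's r among the other 11188 genes. With 8 arrays that share 2 genotypes, 2 ages and 2 replicate numbers, r describes these arrays and is given with no p. The 8 highest were 1700017B05Rik (r = 0.951), Sfxn1 (0.950), Gpr15 (0.926), Serpinb9b (0.925), Ctsw (0.922), Etfa (0.922), Thyn1 (0.920) and Dio2 (0.917). Sfxn1 encodes a mitochondrial serine transporter, Gpr15 a homing receptor of T cells, Etfa a subunit of the electron transfer flavoprotein and Dio2 a deiodinase that activates thyroid hormone. All 8 were higher on every TG array than on any WT array, as were 1.28% of all genes, but choosing genes for a high r with Gzmm largely fixes this, so it is no separate result.

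Most of them differed far less than Gzmm. Sfxn1 had 880 and 803 in TG mice, against 703 and 715 in WT mice, at 12 months, a log2 difference of 0.24 ± 0.16. Gpr15 passed the filter only through its signal in TG replicate 1 at 12 months, so its difference is given as a description. It had 60.9 and 48 in TG mice, against 22.3 and 14.9 in WT mice, at 2 months. Among 12-month mice it had 393 and 73.7 in TG mice, against 25.2 and 28.1 in WT mice, a difference of 2.17 ± 0.59.

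The 4 genes most opposite to Gzmm were Fam160b2 (r = -0.975), Hif1an (-0.970), Acap1 (-0.964) and Zfp90 (-0.959). Hif1an, whose product hydroxylates HIF-1 alpha, had 194 and 179 in TG mice, against 244 and 260 in WT mice, at 2 months. The 12-month signals were 137 and 150 in TG mice, against 233 and 211 in WT mice, below WT on every array. Without TG replicate 1 at 12 months none of the 8 like genes was still among the first 8, and 7 of them had r from 0.839 to 0.909, while Gpr15 then lay under the filter. Of the 4 opposite genes, 2 were still among the last 4. T cell markers had a median r of 0.50 with Gzmm (-0.64 to 0.79) and NK cell markers 0.42 (-0.93 to 0.91), the lowest being Klra8 and the highest Eomes.

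**Figure D4:**
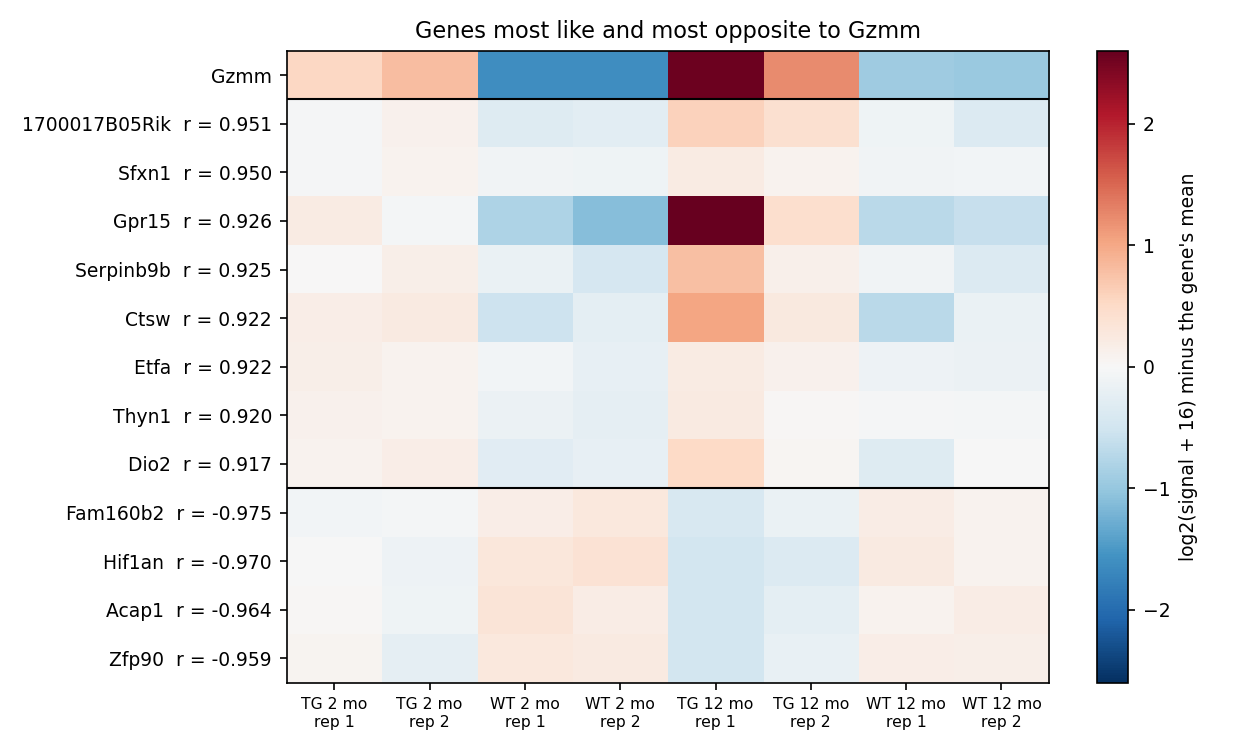
Log2(signal + 16) minus the gene's mean over the 8 arrays, for Gzmm (top row), the 8 genes with the highest r and the 4 with the lowest r over these arrays. Columns are single arrays, TG before WT within each age. Red cells are above and blue cells below the gene's mean, and TG replicate 1 at 12 months is the reddest for Gzmm (1089 in signal) and Gpr15 (393).

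Gzmm lies on chromosome 10, and the 10 nearest genes with a probe set on each side were taken by their order in RefSeq on GRCm38.p6. Of these 20 genes, 11 passed the filter, with a median TG minus WT difference of 0.04 at 2 months (-0.32 to 0.26) and 0.05 at 12 months (-0.20 to 0.62). None passed the test, with or without the replicate block, and 1 of the 11 had an unadjusted p under 0.05, at 12 months, against 865 of all 11189 genes. The nearest on one side were Cdc34, Tpgs1 and Madcam1 and on the other Bsg, Hcn2 (under the filter) and Polrmt.

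Cdc34, a ubiquitin-conjugating enzyme and the direct neighbour of Gzmm, had the highest difference of the 11. It had 505 and 662 in TG mice, against 456 and 504 in WT mice, at 2 months, and 607 and 746 in TG mice, against 429 and 437 in WT mice, at 12 months. Its TG arrays lay above all WT arrays, and its differences were 0.26 ± 0.20 at 2 months and 0.62 ± 0.20 at 12 months (adjusted p = 1 and 0.586, limma). Bsg, basigin, the neighbour on the other side, had 1132 and 1044 in TG mice, against 1120 and 979 in WT mice, at 12 months. Polrmt, the mitochondrial RNA polymerase, had 303 and 360 in TG mice, against 344 and 362 in WT mice, at 12 months.

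**Figure D5:**
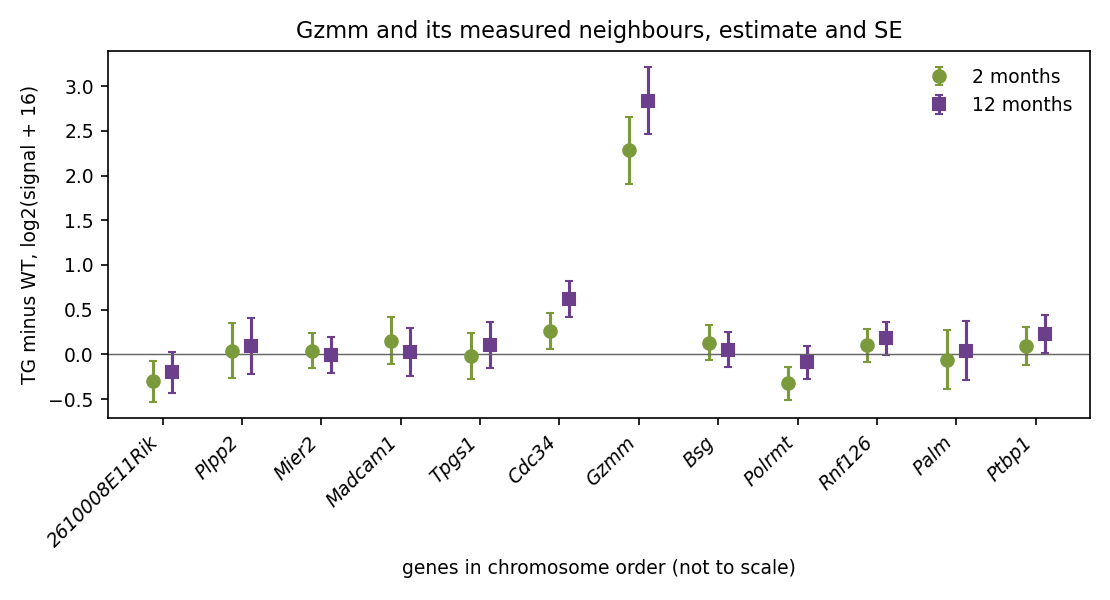
TG minus WT in log2(signal + 16) at 2 months (circles) and 12 months (squares) for Gzmm and the 11 neighbours that passed the filter, in chromosome order and not to scale, with SE as error bars. Gzmm stands at 2.28 and 2.83, and the neighbours lie between -0.32 and 0.62.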

How the data were processed

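RNA of mouse spleen cells was measured on 8 Affymetrix Mouse 430 2.0 arrays. The deposited table holds unlogged intensities, 1 per probe set and array, made with GCOS 1.4 and MAS5 per the submitters' processing notes. In the values, the trimmed mean was 150.001 on each array. Of 45101 probe sets, 34945 had 1 symbol in the probe annotation given, 932 several and 9160 none.

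From there, signals were transformed to log2(signal + 16). Those probe sets under the median of all mean log2 values (a signal of 45.3) were dropped, and each gene was represented by its brightest remaining probe set, leaving 11189 genes. A model with 4 group means was fitted with limma 3.58.1 in R 4.3.3 (intensity trend, 4 residual degrees of freedom), with 2-sided p-values adjusted by Benjamini-Hochberg and a threshold of 0.05. Differences between replicates 1 and 2 correlated over genes between all 6 pairs of groups (r of 0.464 to 0.654). The replicate number may thus mark a batch, which the labels do not state. The main fit left it out, and p-values are from that fit unless the replicate block is named. P-values measure the spread between these samples, with 2 in each group.

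The gene and the 13 gene lists were chosen with earlier results of these data known. Named are the defining genes of a list, up to 3 others per direction by p at 12 months, all granzymes, the 8 most like and 4 most opposite genes and the 3 nearest neighbours on each side. Of these, the text gives values for those on which a comparison turns. Alternatives were the pseudocount, the filter, normalization between arrays, averaging over probe sets of a gene, the trend, the replicate block and leaving out each array. On simulated data for TG against WT at 12 months (11189 genes, 200 of them changed), 0% of log2 changes of 1, 79% of those of 2 and 94.5% of those of 3 were recovered. Of the unchanged genes, 0, 6 and 7 were called in these runs. The simulated noise was independent between genes and arrays, unlike the replicate differences above, so these rates may not hold for the measured arrays. Markers with no probe set of their own symbol were not analysed here.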

Additional observations from a re-analysis of the deposited data

Results flagged for a closer look

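Csf1r, the receptor for the macrophage growth factor and one of the macrophage markers, was lower at 12 than at 2 months in both TG replicates and higher in both WT replicates. The log2 difference of 12 against 2 months was -0.30 in TG mice and 0.19 in WT mice, and these differed by -0.48. That difference was negative for all 9 macrophage markers, so its direction was not particular to Csf1r. The difference itself, fitted as an interaction over all genes with limma, did not pass (adjusted p = 1).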

How the results depend on the processing

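The TG minus WT difference of Gzmm was positive at both ages under every alternative run. At 2 months it was 1.67 with a pseudocount of 64, since the WT level is dim, and relative to T cell markers it was 2.48 with a pseudocount of 1 and 1.54 with 64, and relative to NK cell markers 2.50 and 1.57. At 12 months, a pseudocount of 64 gave 2.00 relative to T cell markers and 2.08 relative to NK cell markers. Leaving out 1 array at a time gave 2.18 to 3.49 for Gzmm at 12 months, 0.57 to 1.88 for 12 against 2 months in TG mice, and 2.20 to 2.67 relative to T cell markers at 12 months. The replicate block left the Gzmm difference at 2.28 and 2.83, and gave 5 genes past the test for TG against WT at 12 months and 21 for 12 against 2 months in TG mice, against 0 and 1 without it. A pseudocount of 1 left 0 for age in TG mice. Leaving out 1 array gave 0 to 2 genes for TG against WT at 2 months, 0 to 7 at 12 months, 0 to 4 for age in TG mice and 0 to 4 for age in WT mice. With the replicate block, leaving out 1 array gave 0 to 734 genes at 12 months and 0 to 372 for age in TG mice, an alternative chosen after seeing the data, as was the likeness without TG replicate 1 at 12 months. Of 3252 recomputed values of named genes, 3101 kept their direction and side of the threshold and 129 changed sign without being called. Of the rest, 11 passed only under the alternative, among them Cr2 and Fcer2a with the replicate block, and Gzma. The 11 also include Gpr15 without TG replicate 2 at 12 months. That run leaves TG replicate 1, through which Gpr15 passed the filter, alone in its group, so Gpr15 stays a description. Another 11 calls were lost, all of Gzma with age in TG mice. With 2 arrays a group, small differences could be missed, and the simulated recovery for a log2 change of 1 was 0%. Dim signals such as Gzmm in WT mice at 2 months lie near the filter.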
